A study of Mus musculus with 16 samples.

Results

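The 9 genes described here encode carriers, or a carrier subunit, that bring glucose and amino acids into the cell: *Slc2a1*, *Slc2a3*, *Slc7a5*, *Slc3a2*, *Slc1a5*, *Slc7a1*, *Slc7a6*, *Slc38a1* and *Slc38a2*. The members were named one by one, by symbol, and all 9 are among the 24974 genes counted in every sample of double-positive (DP) and CD8 thymocytes with or without *Tox4*. All 9 passed the filter on low counts in every comparison.

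A cell takes up hexoses and amino acids only through membrane carriers, and T cells change the amounts of these carriers as they pass from quiescence to growth and division. GLUT1 (*Slc2a1*) and GLUT3 (*Slc2a3*) let glucose flow down its gradient. CAT1 (*Slc7a1*) carries arginine and lysine. CD98, the heavy chain encoded by *Slc3a2*, pairs with light chains such as LAT1 (*Slc7a5*), which exchanges large neutral amino acids including leucine, and y+LAT2 (*Slc7a6*), which exchanges cationic and neutral amino acids. ASCT2 (*Slc1a5*), SNAT1 (*Slc38a1*) and SNAT2 (*Slc38a2*) take up glutamine and other small neutral amino acids with sodium.

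RNA was measured in 16 samples of mouse thymocytes. The controls, labelled Tox4;F/F, carried floxed *Tox4* alleles and no Cre (3 DP and 5 CD8 samples), and the conditional knockouts (cKO) also carried Lck-Cre, labelled Tox4;F/F;Lck+ in DP (3 samples) and Tox4;F/F;Lck-cre in CD8 cells (5 samples). Exons 4 to 6 are floxed, so that every group shares the floxed allele, and Cre is driven by the proximal *Lck* promoter, which acts from the DN3 stage onward. Mice were sex-matched littermates of 6 to 8 weeks. Both cell types were sorted, CD8 thymocytes as TCRβ+CD8+. No source used here ties each sample to its own animal, so p-values measure the spread between these samples.

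Deposited counts summed to between 14583336 and 25981683 fragments per DP sample and between 8514135 and 13530783 per CD8 sample. One library stood apart. CD8 control replicate 1 had at least 1 count for 17741 genes, while the other 4 CD8 control samples had 13708 to 14194. Its markers of B cells summed to 65.5 TPM (counts divided by exonic length and scaled to the same sum in every sample), against 20.4 to 28.4 in the other 4. The calls of the transporters, of the named genes of the lists and of the markers are therefore also given without it.

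*Tox4* itself (mm10 chromosome 14, 52279146 to 52295509) was measured first. Levels between samples are given as CPM (counts scaled to library size) normalized over the 16 samples by the TMM method of edgeR, and fold changes come from each comparison's own edgeR fit, with their standard error (SE) and a p adjusted over all genes tested. In DP cells the 3 control samples held 149, 165 and 175 CPM of *Tox4* and the 3 cKO samples 128, 135 and 129. Every DP cKO sample lay below every DP control sample, with a log2 fold change of -0.32 (SE 0.11, adjusted p = 0.381). In CD8 cells the values were 199, 191, 204, 207 and 183 CPM in control and 173, 189, 178, 237 and 168 CPM in cKO samples. These groups overlapped (log2 fold change -0.056, SE 0.10, adjusted p = 0.979), and the highest value was that of cKO replicate 4. The count covers all exons of the gene, including those outside the floxed part, and so gave no check of the genotype labels in CD8 cells, where the columns of the count table were matched to the groups by name.

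Marker genes followed the labelled cell types. In DP samples *Rag1* averaged 3607 ± 606 TPM (SD, n = 3) in control cells, and in CD8 control samples 25.5 ± 24.8 TPM (SD, n = 5). *Cd4* averaged 1675 ± 198 TPM in DP control and 30.7 ± 32.9 TPM in CD8 control samples, and *Runx3*, a factor of the CD8 lineage, 26.0 ± 6.01 TPM and 467 ± 27.7 TPM. *Cd8b1* was high in both cell types. Of the 7 markers of mature CD8 cells tested, all 7 were called higher in CD8 than in DP control cells, and of 9 DP markers 8 were called lower, with the same counts when CD8 control replicate 1 was left out. Markers of other cells were low: in every CD8 sample the 8 myeloid markers summed to no more than 13.4 TPM, in every DP sample to no more than 87.6 TPM, and the hemoglobin genes *Hba-a1*, *Hba-a2*, *Hbb-bs* and *Hbb-bt* were at 0 counts in all 16 samples.

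In every group the glutamine carriers *Slc38a2* and *Slc1a5* had the highest levels. Compared per length in DP control cells, *Slc38a2* was at 477 ± 50.6 TPM and *Slc1a5* at 236 ± 15.5 TPM (SD, n = 3), followed by *Slc38a1* at 105 ± 18.4 TPM and *Slc3a2* at 105 ± 26.0 TPM, whose samples overlapped. *Slc7a6* came next at 57.6 ± 4.98 TPM. The lowest 4 were *Slc2a1* at 33.8 ± 5.64 TPM, *Slc7a5* at 30.7 ± 5.06 TPM, *Slc7a1* at 25.3 ± 4.17 TPM and *Slc2a3* at 23.7 ± 1.55 TPM, and each overlapped with its neighbour. In CD8 control cells the first 4 places were the same, with *Slc38a2* at 403 ± 45.1 TPM, *Slc1a5* at 275 ± 23.8 TPM, *Slc38a1* at 147 ± 14.4 TPM and *Slc3a2* at 135 ± 20.4 TPM (SD, n = 5). Below them *Slc7a1* (80.2 ± 5.84 TPM) and *Slc7a5* (78.3 ± 6.13 TPM) now stood above *Slc7a6* (71.3 ± 6.49 TPM), *Slc2a1* (64.4 ± 7.94 TPM) and *Slc2a3* (50.6 ± 7.34 TPM), and each of these 5 overlapped with its neighbour. In both cKO groups *Slc38a2* and *Slc1a5* were also first and second and *Slc2a3* last.

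**Figure D1:**
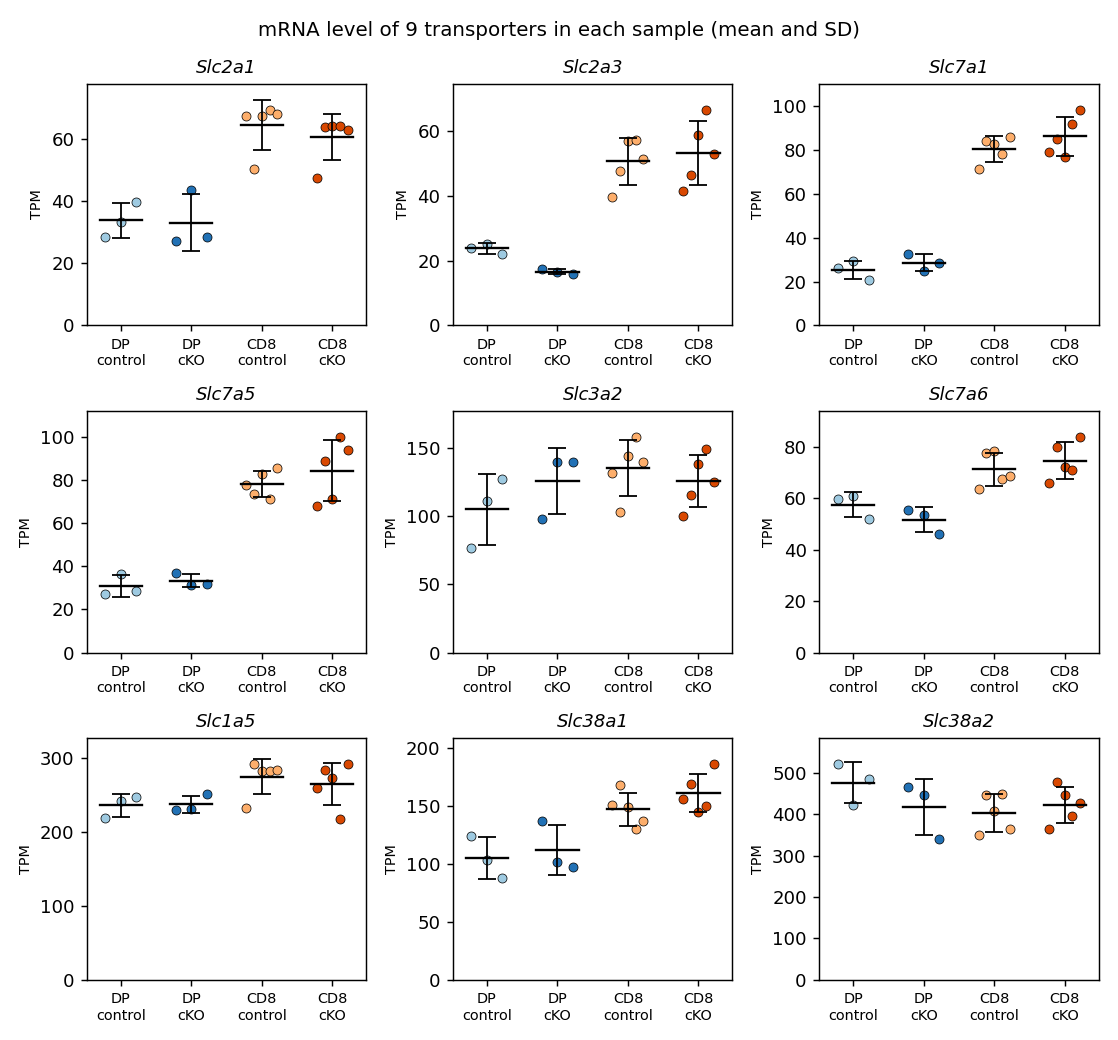
mRNA level in TPM (vertical axes from 0, a scale for each gene) of the 9 transporters in each sample of the 4 groups; points are samples in replicate order, horizontal bars are means and error bars are SD. The CD8 samples of *Slc7a1* all lie at 71.1 TPM or above and the DP samples at 32.6 TPM or below, while control and cKO samples of a cell type overlap in every panel but that of *Slc2a3* in DP cells.

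Control CD8 cells were compared with control DP cells to ask how the carriers differ between DP thymocytes and the later CD8 stage. *Slc7a1*, *Slc7a5*, *Slc2a3* and *Slc2a1* were higher in CD8 cells, by 3.01-fold, 2.41-fold, 2.03-fold and 1.81-fold. The glutamine carriers and the CD98 heavy chain differed by less than 1.5-fold. A gene was called where its adjusted p lay under 0.05, where it differed by 1.5-fold or more, and where its TPM averaged 1 or more. By this rule 4 of the 9 transporters were called higher and 0 lower (DESeq2 called the same 4 higher and 0 lower), beside 22.0% of the 11758 genes tested called higher and 22.3% called lower. The median log2 fold change of the 9 was 0.41, and that of all genes tested -0.011. At an unadjusted p under 0.05 stood 7 of the 9, near the 64.1% of all genes tested. The samples of the 2 cell types come from separate count tables, and cell type cannot be told apart from whatever else differed between the 2 sets. In bulk samples, fewer cells of a type and less RNA per cell cannot be told apart either. Scaling by total counts alone shifted the median of all genes by -0.11 on the log2 scale and left the same 4 called.

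Both glucose carriers rose. *Slc2a1* (chromosome 4, 119108745 to 119137329) held 23.4, 29.8 and 35.4 CPM in DP control samples and 55.5, 39.3, 53.6, 58.4 and 55.6 CPM in CD8 control samples. No CD8 sample fell within the DP range, but replicate 2 lay well below the other 4. The log2 fold change was 0.86 (SE 0.17, adjusted p = 0.000895), and every one of the 5 CD8 samples was above every DP sample (exact permutation test, 2-sided, p = 0.0179, the smallest that 5 against 3 allow). *Slc2a3* (chromosome 6, 122727809 to 122742745) held 30.6, 34.5 and 30.4 CPM in DP control and 50.4, 57.4, 69.7, 74.2 and 64.8 CPM in CD8 control samples. Again all 5 CD8 samples were higher, with a log2 fold change of 1.02 (SE 0.14, adjusted p = 6.81e-05). Without CD8 control replicate 1, the library that stood apart, the log2 fold changes were 0.84 for *Slc2a1* and 1.10 for *Slc2a3*, and all 4 transporters were called, among 5147 genes in place of 5213.

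The arginine carrier changed most. *Slc7a1* (chromosome 5, 148327410 to 148399904) held 60.5, 73.1 and 52.6 CPM in DP control and 165, 184, 185, 185 and 197 CPM in CD8 control samples. The lowest CD8 sample was thus more than 2-fold above the highest DP sample. The log2 fold change was 1.59 (SE 0.12, adjusted p = 5.65e-07). Like *Slc2a1* and *Slc2a3*, *Slc7a1* was above the DP range in 5 of 5 CD8 samples.

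Because 4 of the 9 rose together, promoters of those with an entry were searched for short motifs. RefSeq promoters on GRCm38.p6, 250 bases before to 50 after the start, were matched for 5 of the 9 members, with 7 sequences. None was matched for *Slc2a3*, *Slc7a5*, *Slc1a5* and *Slc38a1*. On either strand CACGTG, the E-box read by MYC with MAX, was in 0 of the 7, against 7.15% of 32841 promoters of this length. The core of a hypoxia response element has the forms GCGTG and ACGTG, and the second is also held within the E-box. The form GCGTG was in 5 of the 7, against 32.4% of all promoters, ACGTG in 4 of the 7, against 19.6%, and either form in 6 of the 7, against 43.8%. The 2 sequences of *Slc7a6* share 233 bases, and by gene GCGTG was in 4 of 5 and ACGTG in 3 of 5. Windows of *Slc3a2*, *Slc7a6* and *Slc38a2*, which were not called, hold matches too, so these counts do not describe the called carriers alone. GC content ran from 51.7% in a *Slc7a1* sequence to 76.7% in a *Slc7a6* sequence. The part of GC content in the matches was not tested. TGATGNAA, the letters of an amino acid response element, was in 0 of the 7, against 3.97% of all. The 3 sequences below belong to the called genes with an entry, *Slc2a1* (chr4:119108495-119108794, plus strand) and *Slc7a1* (start 1 at chr5:148399855-148400154 and start 2 at chr5:148392766-148393065, minus strand), printed 5′ to 3′ with both forms, or their reverse complements, in capitals. A match is a description of letters and not a bound site.
Slc2a1: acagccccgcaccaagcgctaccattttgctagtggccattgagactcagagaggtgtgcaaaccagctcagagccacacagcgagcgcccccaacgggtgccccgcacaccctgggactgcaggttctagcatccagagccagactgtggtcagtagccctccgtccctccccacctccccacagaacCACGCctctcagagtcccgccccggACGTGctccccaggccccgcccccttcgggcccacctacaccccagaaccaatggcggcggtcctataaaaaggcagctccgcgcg
Slc7a1 start 1: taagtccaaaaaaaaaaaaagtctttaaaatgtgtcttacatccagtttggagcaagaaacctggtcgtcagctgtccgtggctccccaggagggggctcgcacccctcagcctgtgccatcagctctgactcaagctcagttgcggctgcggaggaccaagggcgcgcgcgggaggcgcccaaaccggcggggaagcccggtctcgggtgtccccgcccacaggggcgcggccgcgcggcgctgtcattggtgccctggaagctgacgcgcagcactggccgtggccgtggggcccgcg
Slc7a1 start 2: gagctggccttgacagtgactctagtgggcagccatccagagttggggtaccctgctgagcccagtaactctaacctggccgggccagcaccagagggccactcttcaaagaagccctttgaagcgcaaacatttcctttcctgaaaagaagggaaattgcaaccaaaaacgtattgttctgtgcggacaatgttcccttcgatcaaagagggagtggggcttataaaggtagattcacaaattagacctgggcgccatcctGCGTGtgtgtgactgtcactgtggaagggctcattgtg
The window of *Slc2a1* holds each form once and that of *Slc7a1* start 2 holds GCGTG once. Start 1 of *Slc7a1* holds neither.

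The leucine exchanger rose, while its heavy chain did not pass the test. *Slc7a5* (chromosome 8, 121881146 to 121907686) held 30.7, 44.5 and 34.8 CPM in DP control and 88.0, 78.3, 90.1, 81.7 and 95.8 CPM in CD8 control samples. The groups did not overlap, and the log2 fold change was 1.27 (SE 0.14, adjusted p = 1.06e-05). For *Slc3a2* (chromosome 19, 8706882 to 8723369) the values were 72.8, 114 and 131 CPM in DP control and 125, 92.6, 132, 153 and 132 CPM in CD8 control samples. Here the groups overlapped, and the log2 fold change of 0.28 (SE 0.19, adjusted p = 0.217) did not pass the test. *Slc7a6*, the other light chain, had a log2 fold change of 0.23 (SE 0.10, adjusted p = 0.0598, and 0.0282 to 0.308 over 16 alternatives). Chosen after the values were seen, the ratio of *Slc7a5* to *Slc3a2* in TPM was 0.302 ± 0.0696 (SD, n = 3) in DP control, 0.277 ± 0.0875 (SD, n = 3) in DP cKO, 0.589 ± 0.0941 (SD, n = 5) in CD8 control and 0.677 ± 0.101 (SD, n = 5) in CD8 cKO samples. Its lowest value in a CD8 control sample was 0.449 and its highest in a DP control sample 0.355.

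**Figure D2:**
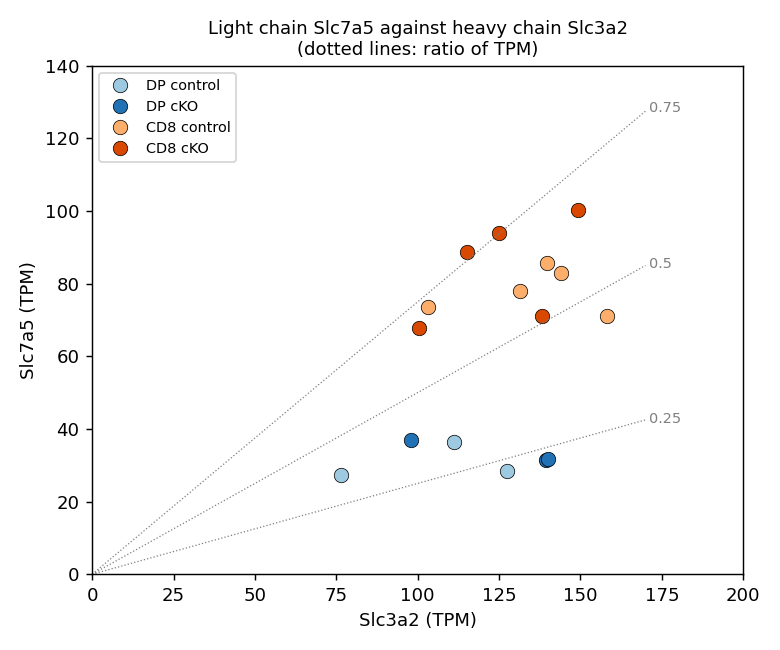
Level of *Slc7a5* (vertical axis, TPM) against that of *Slc3a2* (horizontal axis, TPM) in the 16 samples, colored by group; dotted lines mark fixed ratios of the levels. The CD8 samples lie at ratios of 0.449 and above and the DP samples at 0.378 and below, over a shared range of *Slc3a2*.

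The glutamine carriers differed by less than 1.5-fold between the cell types. *Slc38a1* (chromosome 15, 96571418 to 96642913) had a log2 fold change of 0.41 (SE 0.11, adjusted p = 0.00679), which passed the p threshold and was under the 1.5-fold limit, and all 5 CD8 control samples (358 to 428 CPM) were above the 3 DP control samples (256 to 335 CPM). *Slc38a2*, next to it on the same chromosome (96687392 to 96699728), went the other way, from 681 to 788 CPM in DP control to 523 to 682 CPM in CD8 control samples. Its log2 fold change was -0.31 (SE 0.11, adjusted p = 0.0286), also under the fold limit. The highest CD8 sample lay just above the lowest DP sample, and over 16 alternatives the adjusted p of *Slc38a2* ran from 0.00625 to 0.104, with 5 at 0.05 or more. *Slc1a5* (chromosome 7, 16781346 to 16798274) was at 194 to 237 CPM in DP control and 207 to 255 CPM in CD8 control samples, with a log2 fold change of 0.14 (SE 0.10, adjusted p = 0.258).

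Markers of cycling cells moved with this comparison. The 10 of them, led by *Pcna*, summed to 2163, 2406 and 1657 TPM in DP control samples and to 598, 1085, 877, 893 and 1045 TPM in CD8 control samples; 8 of the 10 were called lower in CD8 cells (7 without CD8 control replicate 1) and none was at 0. *Mki67* went the other way, from 93.7 to 132 TPM on average (log2 fold change 0.44, adjusted p = 0.155). The 4 called transporters went the opposite way. Other lists differed as well, and the sums of the myeloid, thymic epithelium, gamma-delta and NK lists did so without overlap. The 8 myeloid markers, led by *Lyz2* and with *Fcgr1* at 0 counts in CD8 control samples, summed to 41.6, 87.6 and 36.7 TPM in DP control and 9.20, 7.37, 2.58, 2.93 and 3.37 TPM in CD8 control samples, and 4 of 5 tested were called lower. The 5 markers of thymic epithelium, led by *Epcam* and with *Foxn1* at 0 counts in DP control samples, summed to 7.82, 8.31 and 12.0 TPM and to 6.18, 2.67, 3.09, 2.38 and 4.34 TPM, and the 1 tested was called lower. The gamma-delta markers *Sox13* and *Cd163l1* summed to 2.28, 1.47 and 1.68 TPM in DP control and 8.58, 6.40, 6.33, 3.04 and 4.92 TPM in CD8 control samples, and both were called higher. The 3 NK markers, led by *Klrb1c* and with *Klra8* at 0 counts, summed to 1.62, 1.18 and 0.250 TPM and to 6.24, 4.41, 4.21, 5.39 and 5.89 TPM, and the 1 tested was called higher. Of 4 markers of the CD4 lineage 1 was called higher and 2 lower, and of 5 B cell markers 1 lower. The sums of both lists overlapped. Those of the CD4 lineage ran from 22.6 to 39.9 TPM in DP control and 16.6 to 49.9 TPM in CD8 control samples. Those of B cells ran from 41.8 to 61.6 TPM and from 20.4 to 65.5 TPM. Without CD8 control replicate 1 the counts of these 6 lists were the same. The part of any of these cells in the differences was not tested. The markers of mature CD8 cells differed among the CD8 samples too: their sum was 3852, 3280, 5578, 5799 and 4800 TPM in control replicates 1 to 5 and 3387, 3403, 6038, 6112 and 4838 TPM in cKO replicates 1 to 5. *Slc2a3* was likewise lowest in replicates 1 and 2 and highest in replicates 3 and 4 of both genotypes, and the part of maturity in that spread was not tested.

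DP cKO cells were compared with control DP cells to ask whether uptake genes differ with the genotype. None of the 9 transporters was called, by edgeR or by DESeq2. *Slc2a3* alone had an unadjusted edgeR p under 0.05, beside 9.18% of all genes tested, so that 1 of 9 is near this share. Of the 11748 genes tested, 10 were called higher (0.0851%) and 7 lower (0.0596%), so that 0 of 9 is near this background. With each of the 6 samples left out in turn these 17 became 0 to 8, and DESeq2 called 160, again with 0 transporters.

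*Slc2a3* held 30.6, 34.5 and 30.4 CPM in DP control samples and 22.9, 22.3 and 23.3 CPM in DP cKO samples. The groups did not overlap, and the 3 cKO samples lay close together. The log2 fold change was -0.48 (SE 0.13), with an edgeR adjusted p of 0.235 that did not pass the threshold (exact permutation test, 2-sided, p = 0.1, the smallest that 3 against 3 allow). Its partner *Slc2a1* held 23.4, 29.8 and 35.4 CPM in control and 23.2, 38.0 and 27.3 CPM in cKO samples, and its log2 fold change was -0.0035 (SE 0.22, adjusted p = 0.996). The 8 other transporters overlapped between the genotypes, with log2 fold changes from -0.16 for *Slc38a2* to 0.29 for *Slc3a2* and edgeR adjusted p-values of 0.758 and above.

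Several marker lists had lower sums on average in DP cKO than in DP control samples, as *Slc2a3* did. The 8 myeloid markers, led by *Lyz2*, summed to 41.6, 87.6 and 36.7 TPM in control and 22.7, 25.8 and 22.7 TPM in cKO samples. The 4 markers of the CD4 lineage, led by *Il2ra*, summed to 39.9, 29.3 and 22.6 TPM and to 17.5, 13.9 and 14.8 TPM. The 5 markers of thymic epithelium, led by *Epcam* and with *Foxn1* at 0 counts, summed to 7.82, 8.31 and 12.0 TPM and to 6.71, 4.80 and 6.03 TPM. The 7 markers of mature CD8 cells tested had a median log2 fold change of -0.80. Among them *Ccr7* averaged 34.2 and 15.8 TPM, *Il7r* 15.7 and 7.71 TPM and *S1pr1* 3.49 and 1.29 TPM. The B cell markers, led by *Cd79b*, summed to 54.7, 61.6 and 41.8 TPM and to 40.0, 44.7 and 43.3 TPM, with a median log2 fold change of -1.08 for the 4 tested. The 3 NK markers, led by *Klrb1c*, summed to 1.62, 1.18 and 0.250 TPM and to 0.208, 0.219 and 0.118 TPM, without overlap. None of these NK markers was tested in this comparison. Other lists went the opposite way. The 3 platelet markers, led by *Itga2b*, with *Gp9* at 0 counts in both groups and *Pf4* at 0 counts in cKO, summed to 2.22, 4.68 and 4.41 TPM in control and 8.12, 9.28 and 6.58 TPM in cKO samples, without overlap. The 10 cycling markers, led by *Pcna*, summed to 2163, 2406 and 1657 TPM in control and 2987, 2107 and 2231 TPM in cKO samples, which overlapped (median log2 fold change 0.35). None of the markers tested from these lists was called. The DP cells had been sorted, and the part of these markers in the values of *Slc2a3* was not tested.

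In DP cells *Slc3a2* was lowest in replicate 1 of both genotypes (72.8 CPM in control and 96.4 CPM in cKO), and *Slc38a1* was highest there (335 and 383 CPM). *Slc2a1* was also lowest in replicate 1 of both, at 23.4 and 23.2 CPM.

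Cre acts before the DP stage, so that CD8 cells descend from DP cells that carried it. In CD8 cells, no transporter was called by edgeR or DESeq2, and none had an unadjusted edgeR p under 0.05. Log2 fold changes ran from -0.14 (*Slc3a2*, SE 0.14) to 0.098 (*Slc38a1*, SE 0.084), all with edgeR adjusted p-values of 0.979 and above, and every one of the 9 overlapped between 5 control and 5 cKO samples. Of 11227 genes tested, 10 were called higher (0.0891%) and 1 lower (0.00891%). With the replicate number as a block, which pairs the samples in CD8 cells, 25 were called higher and 6 lower, and still 0 transporters. DESeq2 called 53, the 10 fits that left out a sample 4 to 20, and the fit without both samples numbered 1 called 5.

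*Slc7a5* and *Slc7a1* spread more among cKO than among control samples of CD8 cells. *Slc7a5* held 75.7, 96.2, 76.1, 116 and 93.6 CPM in cKO replicates 1 to 5, against 78.3 to 95.8 CPM in control samples. *Slc7a1* held 181, 190, 169, 219 and 202 CPM, against 165 to 197 CPM. In both genes cKO replicate 4 was the highest and the groups overlapped. Whether the spread itself differs was not tested.

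The difference between the effects in CD8 and DP cells was tested as an interaction over all 16 samples. None of the 9 was called (adjusted p under 0.05 by edgeR), nor by DESeq2, beside 13 of 12131 genes (0.107%), all with the more positive effect in CD8 cells. *Slc2a3* was the only member with an unadjusted edgeR p under 0.05 in this test, beside 5.27% of all genes tested. It differed by 0.52 on the log2 scale (SE 0.22, adjusted p = 0.880), and *Slc3a2* by -0.44 (SE 0.28, adjusted p = 0.950).

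**Figure D3:**
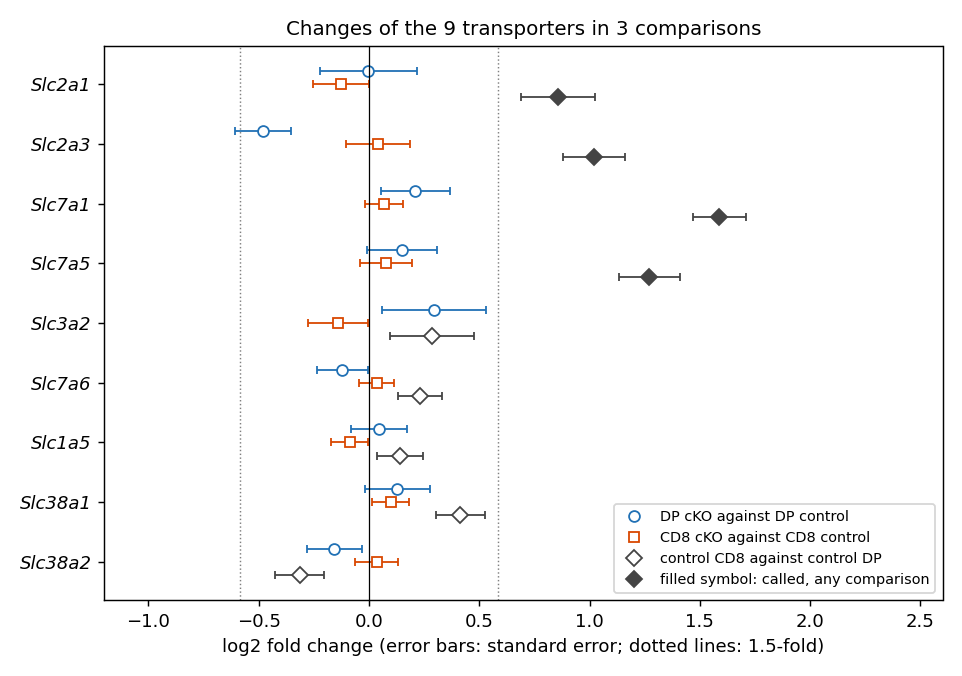
Log2 fold change with standard error (horizontal axis) of the 9 transporters (vertical axis) in cKO against control DP cells, cKO against control CD8 cells and control CD8 against control DP cells; filled symbols were called and dotted lines mark a 1.5-fold change. The 4 filled symbols, from 0.86 for *Slc2a1* to 1.59 for *Slc7a1*, all belong to the comparison of cell types.

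Genes whose pattern was most like each member were taken as the 2 with the highest Pearson correlation of log2(CPM + 1) over the 16 samples, which differ mostly by cell type. *Slc7a1* was followed most closely by *Polr1a*, the largest subunit of RNA polymerase I (r = 0.993), and *Ide* (r = 0.993), and *Slc7a5* by *Tuba1c* (r = 0.981) and *Nol9*, which acts in ribosomal RNA processing (r = 0.979). *Slc2a3* was followed by *Rhof* (r = 0.984) and *Kbtbd11* (r = 0.983). *Rhof* was itself called lower in DP cKO (21.8 TPM on average) than in DP control cells (45.6 TPM), with a log2 fold change of -1.03 (adjusted p = 0.0315). This call ended with any 1 of the 6 samples left out (adjusted p 0.0775 to 0.208), while the log2 fold change stayed between -1.07 and -0.97. DESeq2 (adjusted p = 4.49e-08) and the replicate block (adjusted p = 0.00836) also called *Rhof*. For *Slc2a1* the genes were *Klf6* (r = 0.966) and *Bhlhe40* (r = 0.954), for *Slc38a1* *E2f3* (r = 0.958) and *Rad50* (r = 0.947), and for *Slc7a6* *Cnot1* (r = 0.921) and *Fam102b* (r = 0.919). *Slc3a2*, *Slc1a5* and *Slc38a2* had less close neighbours: *Jund* (r = 0.881) and *Frat1* (r = 0.869), *Tmem259* (r = 0.884) and *Osbpl7* (r = 0.828), and *Neto2* (r = 0.879) and *Chd1* (r = 0.870).

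Other genes of nutrient uptake and use were taken from 7 lists, of which 120 genes were tested between the cell types, 19 of them called higher and 24 lower in CD8 cells. These 35.8% cover both directions together. The share was larger among all genes tested, with 22.0% called higher and another 22.3% called lower. Without CD8 control replicate 1 all 33 genes of the lists named for this comparison kept their call, and only the fold change of *Slc7a11* moved by more than 1.5 times. Among the other amino acid carriers 2 of 21 were called higher and 6 lower, with a median log2 fold change of -0.070. The largest fall was that of *Slc7a11*, the cystine carrier xCT, from 199 ± 41.2 CPM (SD, n = 3) to 1.78 ± 2.03 CPM (SD, n = 5), and the log2 fold change was -6.85 (SE 0.54, adjusted p = 7.40e-07). CD8 control replicates 1 to 5 held 4.73, 3.08, 0.408, 0.377 and 0.299 CPM of *Slc7a11*, and without replicate 1 its log2 fold change was -7.56 (adjusted p = 4.45e-07). Over 15 alternatives this log2 fold change ran from -7.56 to -6.15. *Slc7a11* pairs with the same heavy chain as *Slc7a5*, so that light chains of CD98 went in both directions. *Slc43a1*, the uniporter LAT3 for branched-chain amino acids, fell from 122 ± 13.8 to 13.7 ± 3.60 CPM (log2 fold change -3.14, adjusted p = 6.94e-08). *Slc38a6* and *Slc6a19* also fell, with log2 fold changes of -1.36 and -1.17 (adjusted p = 5.77e-05 and 0.00136). *Slc6a6*, the taurine carrier, rose by 0.67 on the log2 scale (adjusted p = 0.000134) and the low *Slc36a3*, with 1 to 5 counts in DP control samples, by 3.16 (adjusted p = 0.00135, and 3.88 without DP control replicate 2). The call of *Slc6a6* ended with total counts alone (log2 fold change 0.56). Of the other glucose carriers only 2 of 12 passed the filter, and *Slc2a9* was called higher with a log2 fold change of 0.60 (adjusted p = 0.00252), a call that ended under 7 of 16 alternatives, where the fold was under 1.5. Of 4 lactate carriers and chaperones *Bsg*, basigin, was lower (log2 fold change -0.79, adjusted p = 0.000121).

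Of 14 regulators of these carriers, 4 were called higher and 2 lower, with a median log2 fold change of 0.37. *Myc* rose from 37.8 ± 2.70 CPM (SD, n = 3) in DP control to 266 ± 46.6 CPM (SD, n = 5) in CD8 control cells (log2 fold change 2.84, SE 0.16, adjusted p = 5.14e-08), and *Foxo1*, a factor of quiescence, from 90.7 ± 4.33 to 673 ± 115 CPM (log2 fold change 2.92, adjusted p = 3.87e-08). *Irf4* and *Arrdc3* rose by 3.11 and 1.81 on the log2 scale (adjusted p = 0.000195 and 0.000210). The CD8 control samples of *Irf4* ran from 31.1 to 179 CPM, and its log2 fold change was 2.62 on replicates 1 to 3 alone and 2.41 with those paired in a replicate block. *Mycn* had a fold change of 0.233 (adjusted p = 0.000652), and *Akt1* fell by 0.91 on the log2 scale (adjusted p = 3.95e-05).

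Of 27 genes of the amino acid stress response, 2 were called higher and 6 lower (median log2 fold change -0.12). *Shmt2*, a mitochondrial enzyme of serine use, rose by 1.25 and the amino acid sensor kinase gene *Eif2ak4* by 0.69 on the log2 scale (adjusted p = 3.28e-06 and 0.000338). *Ddit4*, an inhibitor of mTORC1, fell by 1.52, *Cebpg* by 0.99, *Atf5* by 0.92 and *Psph* by 0.83 (adjusted p = 0.000138, 0.00127, 0.00101 and 0.000190). Of 37 genes that link amino acids to mTORC1, 7 were called in each direction. *Sesn3* (2.46), the arginine sensor gene *Castor1* (2.31), *Wdr59* (0.78) and *Castor2* (0.65) had the largest positive log2 fold changes among those whose groups did not overlap, and the call of *Castor2* ended with total counts alone (0.55) and without DP control replicate 2 (0.57). *Rragd* fell by 2.23, *Deptor* by 1.77, *Lamtor4* by 1.36 and *Lamtor5* by 1.19 on the log2 scale. Of 15 genes of glutamine and branched-chain amino acid use, 3 were called higher and 2 lower. *Bcat2*, the mitochondrial branched-chain aminotransferase, fell from 110 ± 12.0 to 25.3 ± 2.94 CPM (log2 fold change -2.09, SE 0.12, adjusted p = 8.15e-08), and *Bckdha* fell by 1.11 (adjusted p = 0.000278). *Bckdhb*, *Got1* and *Bcat1* rose by 1.43, 0.99 and 0.82 on the log2 scale (adjusted p = 0.00175, 0.000697 and 0.0208), and the call of *Bcat1* was lost without DP control replicate 2 (adjusted p = 0.0534) or 3 (adjusted p = 0.0832).

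**Figure D4:**
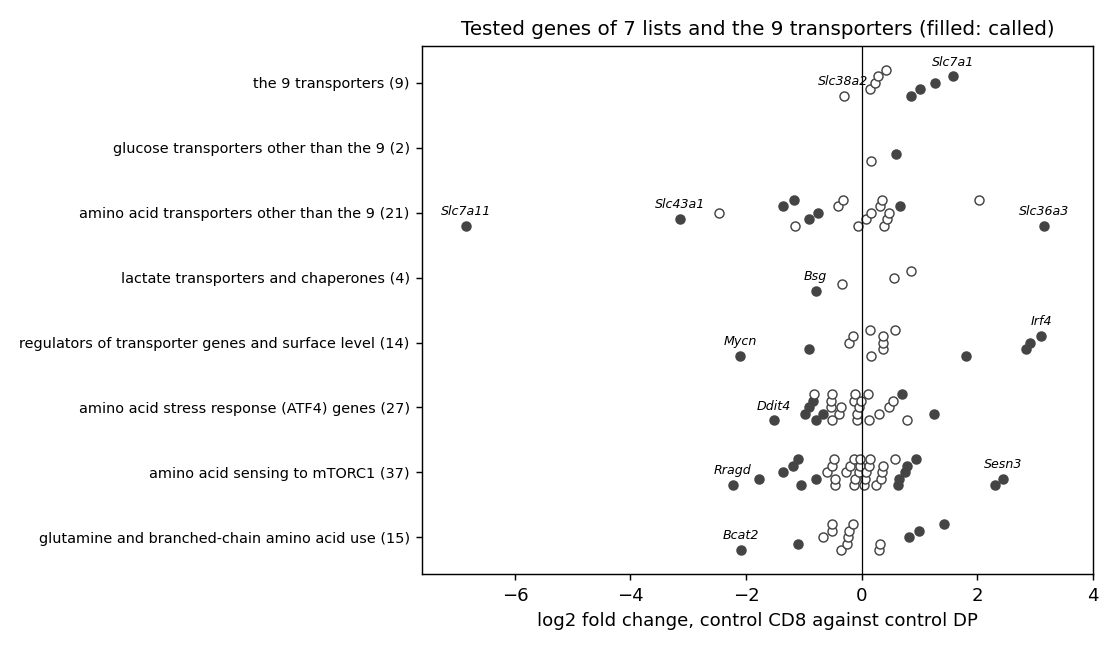
Log2 fold change in control CD8 against control DP cells (horizontal axis) of the 9 transporters and of the tested genes of each list (vertical axis, with the number tested; height within a list has no meaning); filled points were called. The points reach from -6.85 for *Slc7a11* to 3.16 for *Slc36a3*.

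Between cKO and control cells few of these genes were called. In DP cells 1 of 121 was called higher and 0 lower by edgeR, 11 had an unadjusted p under 0.05 (9.18% of all genes tested did), and DESeq2 called 3 higher and 0 lower: *Myc*, *Slc7a11* and *Slc3a1*. The called gene was *Myc*, at 36.4, 40.9 and 36.0 CPM in control and 66.4, 79.0 and 77.3 CPM in cKO samples. Its log2 fold change was 0.97 (SE 0.13, adjusted p = 0.0315), with 3 of 3 cKO samples above all controls. Leaving out DP control replicate 1, 2 or 3 or cKO replicate 2 or 3 raised the adjusted p to between 0.0780 and 0.208, while the log2 fold change stayed between 0.91 and 1.04. In CD8 cells *Myc* had a log2 fold change of -0.10 (adjusted p = 0.979), and the interaction of -1.08 had an edgeR adjusted p of 0.0910, while DESeq2 gave 0.00708 and the replicate block 0.0109 (0.00708 to 0.317 over 21 alternatives). *Slc7a11*, chosen after its values were seen, held 233, 153 and 210 CPM in control and 355, 405 and 346 CPM in cKO samples of DP cells. The groups did not overlap, and the log2 fold change of 0.89 (SE 0.16) had an edgeR adjusted p of 0.107, while DESeq2 gave 0.000319 (0.000319 to 0.534 over 13 alternatives).

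In CD8 cells 0 of 115 genes of the lists were called by edgeR, 3 had an unadjusted p under 0.05 (5.60% of all genes tested did), and DESeq2 called 1. That gene, *Slc3a1* (chromosome 17, 85028347 to 85064241), encodes rBAT, the relative of CD98 that serves as heavy chain for cystine and dibasic amino acids, and was also chosen after its values were seen. It held 7.70, 2.33, 3.88, 5.84 and 4.64 CPM in control and 13.2, 12.5, 27.0, 10.5 and 15.2 CPM in cKO samples. All 5 cKO samples were above all 5 control samples, with a log2 fold change of 1.69 (SE 0.31, adjusted p = 0.0643). With the replicate block the adjusted p was 0.0148, over a range of 3.27e-05 to 0.237 in 18 alternatives, and without CD8 control replicate 1 it was 0.0365. Without both samples numbered 1 the adjusted p of *Slc3a1* was 0.0698 (log2 fold change 1.97). In DP cells *Slc3a1* held 3.76, 3.93 and 3.61 CPM in control and 9.29, 8.80 and 5.91 CPM in cKO samples, with a log2 fold change of 1.08 (SE 0.24, edgeR adjusted p = 0.171, DESeq2 0.0174). The gamma-delta T cell markers were higher in the same CD8 cKO samples, which were sorted on TCRβ and CD8. Led by *Sox13*, they summed to 8.58, 6.40, 6.33, 3.04 and 4.92 TPM in control and 24.3, 13.3, 14.7, 13.5 and 19.4 TPM in cKO samples, without overlap. Only *Sox13* and *Cd163l1* of the 4 are in the tables. *Cd163l1* was called (log2 fold change 1.81, adjusted p = 0.00984) and *Sox13* was not (1.29, adjusted p = 0.203). Without CD8 control replicate 1 both were called, *Cd163l1* with an adjusted p of 0.0254, and without both samples numbered 1 *Cd163l1* was not (adjusted p = 0.0698). Their part in the values of *Slc3a1* was not tested. *Prepl* shares 606 exonic bases with *Slc3a1* on the opposite strand. In each list without a call the most abundant gene is named as well. In DP cells the log2 fold changes were -0.20 for *Slc2a9*, 0.054 for *Slc43a2*, 0.034 for *Emb*, -0.21 for *Atf4*, 0.088 for *Sec13* and -0.063 for *Odc1*, with edgeR adjusted p-values of 0.825 and above. In CD8 cells they were 0.0081 for *Slc2a9*, 0.088 for *Slc6a6*, 0.11 for *Emb*, -0.27 for *Txnip*, -0.21 for *Atf4*, 0.054 for *Sesn3* and 0.12 for *Glud1*, with edgeR adjusted p-values of 0.808 and above.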

How the data were processed

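The authors trimmed strand-specific polyA RNA reads with fastp (version 0.13.1), aligned them to mm10 with HISAT2 (version 2.1.0) and counted fragments per gene with featureCounts (version 1.6.1); the deposited tables hold these raw counts, 1 table for DP and 1 for CD8 samples, with 24984 and 24974 genes. CPM, TPM and all fold changes were computed here from the deposited counts and exonic lengths. Each comparison was fitted on its own samples with the edgeR (4.0.16) quasi-likelihood F test, TMM factors and filterByExpr, in R 4.3.3, with Benjamini-Hochberg adjustment over all genes tested; DESeq2 (1.42.0) was an alternative. The scripts were tested on simulated data. Single genes were also compared by 2-sided exact permutation tests on log2(CPM + 1). In CD8 cells, deviations of samples with the same replicate number correlated across genes in each of 5 pairs. Their r ran from 0.115 to 0.371, all over the limit of 0.1, so the numbers were taken to pair the samples. Pairs with different numbers gave -0.482 to 0.451, and some of them were over 0.1 too. Of the 5 control samples, 4 correlated best with their own number, and control replicate 4 with cKO replicate 3 (r = 0.451).

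The members and the 7 lists were chosen with earlier results of these data known. From each list, up to 4 called genes with the largest rise and up to 4 with the largest fall are named among those whose groups do not overlap, or, with none called, the gene with the highest mean TPM. Other alternatives were RLE factors, total counts alone, other filters on low counts, all 4 groups in 1 fit, the replicate block and leaving out each sample.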

Additional observations from a re-analysis of the deposited data

Results flagged for a closer look

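Among 46 groups of 5 samples searched for a sample far from the other 4, 5 had one; chance gives about 1 in 20. The level of *Slc2a1* in CD8 control replicate 2 was 39.3 CPM, against 53.6 to 58.4 CPM in the other 4. CD8 control replicate 1 had a count for 17741 genes, against 13708 to 14194 in the others, and its markers of B cells summed to 65.5 TPM, against 20.4 to 28.4 TPM. Its erythroid markers summed to 0.376 TPM, against 0 in the others. All of this sum was *Slc4a1*, and beside samples at 0 any count would have been flagged. In CD8 cKO replicate 4 the 9 DP markers summed to 3730 TPM, against 3153 to 3232 TPM in the other 4 samples of that group.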

How the results depend on the processing

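The log2 fold changes of the 9 transporters kept their direction and their call (adjusted p with the fold limit) in 144 of 144 alternative values for control CD8 against control DP cells, 110 of 117 for cKO against control in DP cells, 157 of 162 in CD8 cells and 182 of 189 for the interaction. The others changed sign, all with a sample left out: in DP cells *Slc2a1* (lowest -0.24, highest 0.14), *Slc1a5* (-0.045, 0.10) and *Slc38a1* (-0.0069, 0.22), in CD8 cells *Slc2a3* (-0.083, 0.12), *Slc7a5* (-0.023, 0.15) and *Slc38a2* (-0.015, 0.090), and in the interaction *Slc2a1* (-0.27, 0.10), *Slc7a5* (-0.24, 0.038) and *Slc38a1* (-0.12, 0.11). Between the control cell types the adjusted p of *Slc38a2* and *Slc7a6* crossed 0.05. With adjusted p alone, 5 transporters were higher and 1 lower in CD8 than in DP control cells, beside 60.3% of all genes tested. The numbers of genes called moved more; the cause was not tested. In DP cells, 10 higher and 7 lower became 92 and 68 with DESeq2, 45 and 29 with no filter on low counts, 17 and 25 with all 4 groups in 1 fit, and 0 to 6 and 0 to 2 with a sample left out. In CD8 cells, 10 higher and 1 lower became 41 and 12 with DESeq2, 12 and 2 with all 4 groups in 1 fit, 10 and 2 with adjusted p alone, 4 and 1 without both samples numbered 1, and 3 to 18 and 1 to 2 with a sample left out. In the interaction, 13 higher and 0 lower became 28 and 9 with DESeq2, 6 and 0 without both CD8 samples numbered 1 (chosen after seeing the data), and 0 to 11 and 0 with a sample left out. The values for *Slc7a11*, *Slc3a1*, *Rhof*, *Cd163l1*, *Myc* in the interaction, the markers and the called genes of the lists were also added after seeing the data. With CPM in place of TPM, 27 of 36 places of the transporters by level moved. The depth of the CD8 samples limits genes of low level.

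With the replicate block, 74 genes were called higher and 57 lower in DP cells, 25 and 6 in CD8 cells, and 30 and 3 in the interaction. Between the control cell types the block used replicates 1 to 3 only, and called 4881 genes, against 5041 on the same samples without it and 5213 on all. No call of a transporter changed. Among the named genes, it added the calls of *Slc3a1* in CD8 cells, *Slc7a11* in DP cells (adjusted p = 0.0217) and *Myc* in the interaction (adjusted p = 0.0109) and ended, between the cell types, that of *Bcat1* (adjusted p = 0.0684, and 0.0486 on the same samples without it). *Slc2a9* was under the fold limit on these samples with the block and without it (log2 fold change 0.57 in both). In DP cells samples with the same number correlated with r from 0.0767 to 0.703, not all over 0.1, so the numbers were not taken to pair them, and 2 of 3 control samples correlated best with their own number; the control samples of the 2 cell types gave -0.0772 to 0.0743.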
